A study of Mus musculus with 12 samples.

Results

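The muscle miRNAs mmu-miR-1, mmu-miR-133a, mmu-miR-133b, mmu-miR-206 and mmu-miR-499, together with the antisense entry mmu-miR-1-2-as, were taken by name from the array tables, and all 6 were found among the 710 miRNAs measured. The species prefix is left out below. The samples were 6 Tff2-KO mice, which lack the trefoil peptide Tff2, and 6 WT mice. Each genotype held 3 males and 3 females, and each mouse had 1 array. Both genotypes were on the 129/SV background and were kept in the same facility, but the Tff2-KO line had been generated earlier while the WT animals came from a commercial breeder, so genotype and origin cannot be told apart. No treatment was given, and the age of the mice is not given in the sources used here. Total RNA including miRNAs came from peripheral blood cells that were pelleted by centrifugation, so the RNA is that of a mixture of blood cells, in which fewer cells of a type and less RNA per cell cannot be told apart.

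In skeletal and heart muscle these miRNAs are among the most abundant, and they are used as markers of muscle tissue. miR-1 and miR-206 share a seed and promote the differentiation of myoblasts, while miR-133a and miR-133b, which differ only at the 3′ end, are known for their part in the balance of myoblast proliferation and differentiation. miR-206 is largely restricted to skeletal muscle, and miR-499 is made from a myosin heavy chain gene in heart and slow muscle. The question addressed was how much signal these muscle miRNAs gave in blood cells and whether it differed between Tff2-KO and WT mice.

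The mature sequences of miR-206, miR-133b and miR-499 are shown because the seed families of these miRNAs are read from them. miR-1, miR-133a and miR-1-2-as are named only, and their relations to the others are given as background. They are from RefSeq (GRCm38.p6), run 5′ to 3′, and have the seed (bases 2 to 8) in capitals. The array names carry no arm, and the arm long annotated under the plain name is given. miR-208a and miR-208b, which are made from the other cardiac myosin heavy chain genes, stand beside miR-499.
miR-206: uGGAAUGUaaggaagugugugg
miR-133b: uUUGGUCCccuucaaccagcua
miR-499: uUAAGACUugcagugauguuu
miR-208a: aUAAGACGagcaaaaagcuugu
miR-208b: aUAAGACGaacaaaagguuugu
The seeds of miR-499 and of both miR-208 miRNAs were identical over their first 6 bases. The mature miR-206 lies at chr1:20679055-20679076 and the mature miR-133b at chr1:20682834-20682855, both on the plus strand and both inside the span of Lincmd1, a long noncoding RNA gene of muscle. The mature miR-499 lies at chr2:155622893-155622913, also on the plus strand, inside the span of Myh7b. For miR-1 and miR-133a the RefSeq gene table lists 2 genes each. The gene of miR-1-2-as, which RefSeq names Mir1b, overlaps Mir1a-2, 1 of the genes of miR-1.

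Only miR-133a was above background on all 12 arrays. The raw intensities are background-subtracted, so they scatter around 0 where there is no signal, and the size of the lowest value of an array was taken as its background level. This level lay between 32 and 88, with a median of 44. miR-133b was above it on 10 of 12 arrays, miR-1 on 5, miR-499 on 4, miR-206 on 2 and miR-1-2-as on 0. Of all 710 miRNAs, 300 were above background on every array (42.3%), 32 on none (4.51%), and 177 (24.9%) were at or under it on at least 4 of the 6 arrays of a genotype. miR-1, miR-206, miR-499 and miR-1-2-as belonged to these 177, and no fold change is given for them. The plot of raw intensities shows each mouse beside the background level of its array.

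**Figure D1:**
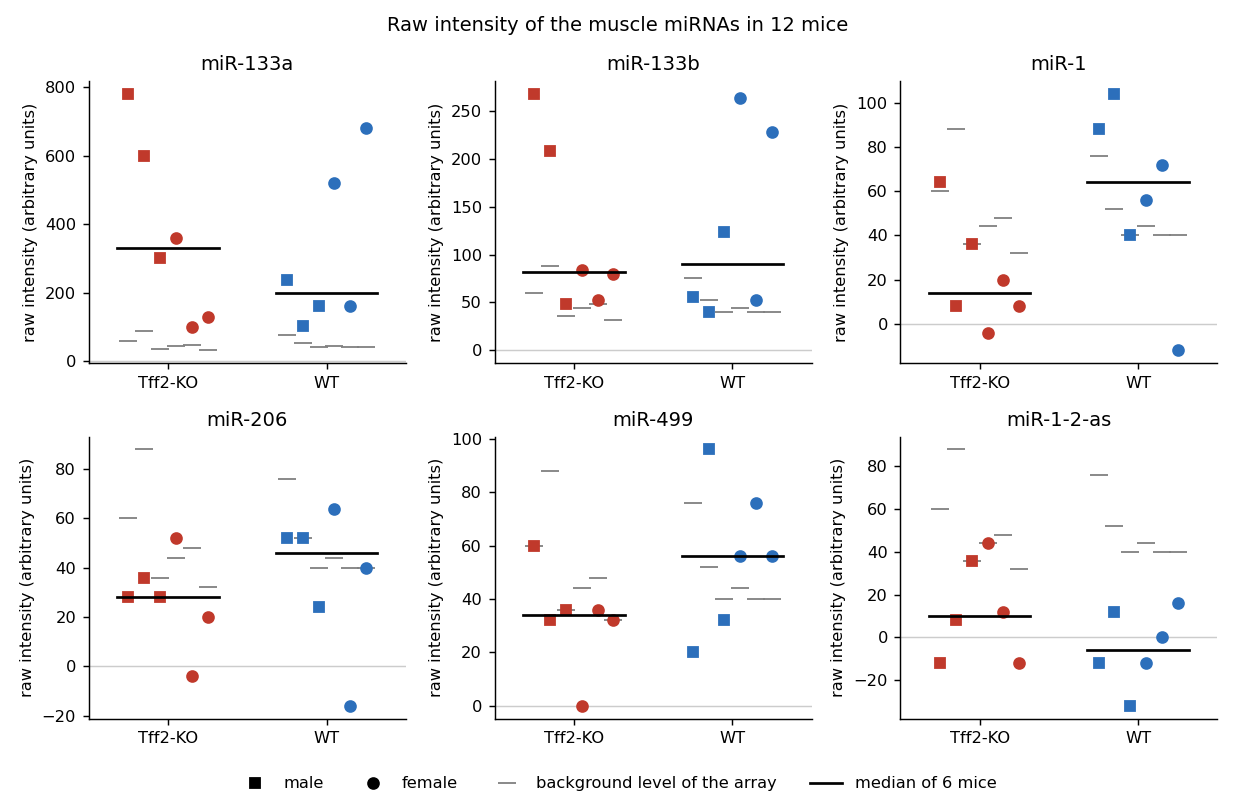
Raw intensity (arbitrary units, linear axis, a separate scale in each panel) of the 6 muscle miRNAs in 6 Tff2-KO (red) and 6 WT mice (blue), with squares for males, circles for females, a black line at the median and a grey dash at the background level of each array. miR-133a was above the dash in all 12 mice and miR-1-2-as in none, and the genotypes overlapped in every panel.

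As a description of the RNA, 9 miRNAs of blood cells were looked at, of which 8 were above background on all 12 arrays. miR-486 and miR-16, abundant in red cells, had median raw intensities of 29237 and 24868, the myeloid miR-223 of 1413 and the lymphocyte miR-150 of 966. miR-451 and miR-144, also of red cells, had medians of 1367 and 546, and the platelet miR-126-3p of 228. The exception was miR-142-3p, above background on 1 array, although miR-142-5p of the same hairpin was above it on all 12. Of miRNAs of other tissues, the brain miRNA miR-9 was above background on 0 arrays, while miR-124, also of brain, was above it on 12. The liver miRNA miR-122 was above background on 11, with raw intensities from 52 to 7646. Its median of 2179 was higher than those of the blood cell miRNAs other than miR-486 and miR-16. Signal above background therefore does not by itself show a blood origin. The mean raw intensity of an array lay between 543 and 1151 among Tff2-KO mice and between 375 and 999.98 among WT mice. Pairs of arrays correlated with r from 0.764 to 0.906 in log2 normalized intensity, and no pair of arrays was identical.

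miR-133a, of the miR-133 pair, varied widely between mice of the same genotype. In Tff2-KO replicates 1 to 6 its raw intensity was 780, 600, 300, 360, 100 and 128. In WT replicates 1 to 6 it was 236, 104, 160, 520, 160 and 680. High and low mice were found in both genotypes, and the groups overlapped over most of their range. After quantile normalization the geometric means were 306 for Tff2-KO and 245 for WT, and the log2 fold change came to 0.32 ± 0.53 (SE, 6 mice in each group). In limma over all 710 miRNAs this did not pass (adjusted p = 0.842), and the 95% confidence interval from -0.83 to 1.47 allowed between 0.563 and 2.77 times the WT level. Without Tff2-KO replicate 1 the log2 fold change was -0.01, and without WT replicate 2 it was 0.02.

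The spread of miR-133a within a genotype was large for its brightness. Its standard deviation within genotypes was 0.974 on the log2 scale. The median over the 328 miRNAs with a mean above the median of all values was 0.417, and miR-133a ranked 5 among these 328 from the most variable down. Single mice lay between the percentiles 44.1 and 90.8 of their array. Tff2-KO replicate 1 held the highest place and WT replicate 2 the lowest.

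miR-133b, the partner of miR-206 in Lincmd1, also varied widely between mice of the same genotype. Its raw intensity was 268, 208, 48, 84, 52 and 80 in Tff2-KO replicates 1 to 6. In WT replicates 1 to 6 it was 56, 40, 124, 264, 52 and 228. WT replicates 1 and 2 were under the background level of their arrays, and the genotypes overlapped almost completely. The geometric means of the normalized intensity were 106 for Tff2-KO and 89.3 for WT. This gave a log2 fold change of 0.25 ± 0.54 (SE, 6 mice in each group, adjusted p = 0.882 in limma). The 95% confidence interval from -0.92 to 1.42 allowed between 0.529 and 2.67 times the WT level. Without WT replicate 2 the log2 fold change was -0.10, and without Tff2-KO replicate 1 it was 0.03.

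The mice with the highest intensities were the same for both miR-133 probes. Tff2-KO replicates 1 and 2 and WT replicates 4 and 6 had raw intensities of 520 or more for miR-133a and of 208 or more for miR-133b, and the other 8 mice were lower in each. Over the 12 mice the log2 normalized intensities of miR-133a and miR-133b correlated with a Pearson r of 0.74 (permutation p = 0.00562) and a Spearman rho of 0.73 (permutation p = 0.00972), both two-sided. Adjusted over the 709 miRNAs that can be set against miR-133a, the relation did not pass (permutation p adjusted to 0.381 for r and 0.376 for rho). Within Tff2-KO mice r was 0.72 and within WT mice 0.78, and it was 0.76 in males and 0.78 in females (n = 6 mice each). Without the 2 mice farthest from the median of miR-133a, WT replicate 2 and Tff2-KO replicate 1, r was 0.46 and rho 0.53 (n = 10), and taking out the extremes of a measure lowers r in itself. Without WT replicate 2 alone r was 0.61, and without Tff2-KO replicate 1 alone it was 0.68. The plot of miR-133a against miR-133b shows them at its opposite ends. Whether the probes tell these near-identical miRNAs apart was not tested.

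**Figure D2:**
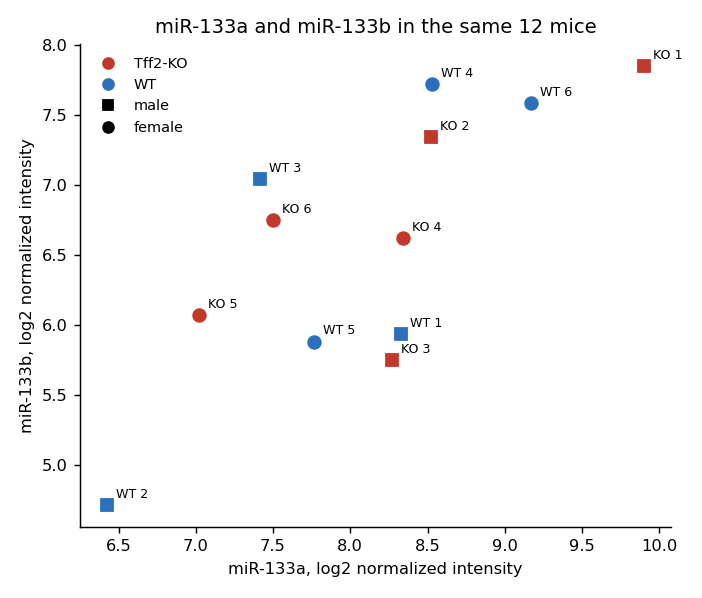
Log2 normalized intensity of miR-133b against that of miR-133a in 12 mice, labelled by genotype and replicate number, with Tff2-KO in red, WT in blue, squares for males and circles for females. The Pearson r was 0.74 over 12 mice, and WT replicate 2 and Tff2-KO replicate 1 lie at the ends.

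Other measures also varied with miR-133 over the mice. The mean raw intensity of the array, on the log2 scale, had an r of 0.50 with miR-133a and of 0.62 with miR-133b, and 3 of the 4 mice with high miR-133 values had the brightest arrays, with mean intensities of 1151, 999.98 and 930. The array of the remaining mouse, Tff2-KO replicate 1, had a mean of 560. Of the 9 blood cell miRNAs, r with miR-133a ranged from -0.28 for miR-16 to 0.67 for miR-150, and with miR-133b from -0.37 for miR-16 to 0.61 for miR-150. The liver miRNA miR-122 had an r of 0.18 with miR-133a and of 0.40 with miR-133b. Among the other miRNAs known from muscle, r with miR-133a ranged from -0.33 for miR-208b to 0.67 for the smooth muscle miRNA miR-145. With miR-133b it ranged from -0.46 for miR-208a to 0.64 for miR-145. These are descriptions over the same 12 arrays, and the part of these measures in the miR-133 values was not tested.

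The difference between the genotypes in miR-133 had opposite signs in the sexes. In males the raw intensities of miR-133a were 300 to 780 in Tff2-KO and 104 to 236 in WT mice, with no overlap, as was the case for 21.3% of all 710 miRNAs in males. In females they were 100 to 360 in Tff2-KO and 160 to 680 in WT mice. The mean raw intensities of the arrays did not overlap in males either, at 560 to 1151 in Tff2-KO and 375 to 520 in WT mice. In females these means overlapped, at 543 to 808 in Tff2-KO and 455 to 999.98 in WT mice. The part of array brightness in the difference was not tested. The log2 fold change in the model with both sexes was 1.51 in males and -0.87 in females, so that the sexes differed by 2.37 ± 0.87 (SE, n = 3 mice per sex and genotype). In limma this difference between the sexes had an unadjusted p of 0.0217 and did not pass when adjusted over all 710 miRNAs (adjusted p = 0.450). Of the 710 miRNAs, 10% had an unadjusted p under 0.05 in this test, and 0.141% passed after adjustment. For miR-133b the log2 fold changes were 1.08 in males and -0.58 in females (difference 1.66 ± 1.03, SE, adjusted p = 0.549). After normalization the male groups overlapped for miR-133a as well, at 309 to 956 in Tff2-KO and 86 to 322 in WT mice. For 0 of the 6 muscle miRNAs did the difference between the sexes pass after adjustment (adjusted p from 0.450 to 0.958 in limma). Opposite signs were not particular to miR-133. The log2 fold changes in males and females were 1.64 and -0.89 for miR-150, 1.27 and -0.52 for miR-145, and 3.65 and -1.39 for miR-122. Other listed miRNAs went the other way, such as miR-144 at -1.34 and 0.75. These differences did not pass either (adjusted p from 0.205 to 0.450 in limma).

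**Figure D3:**
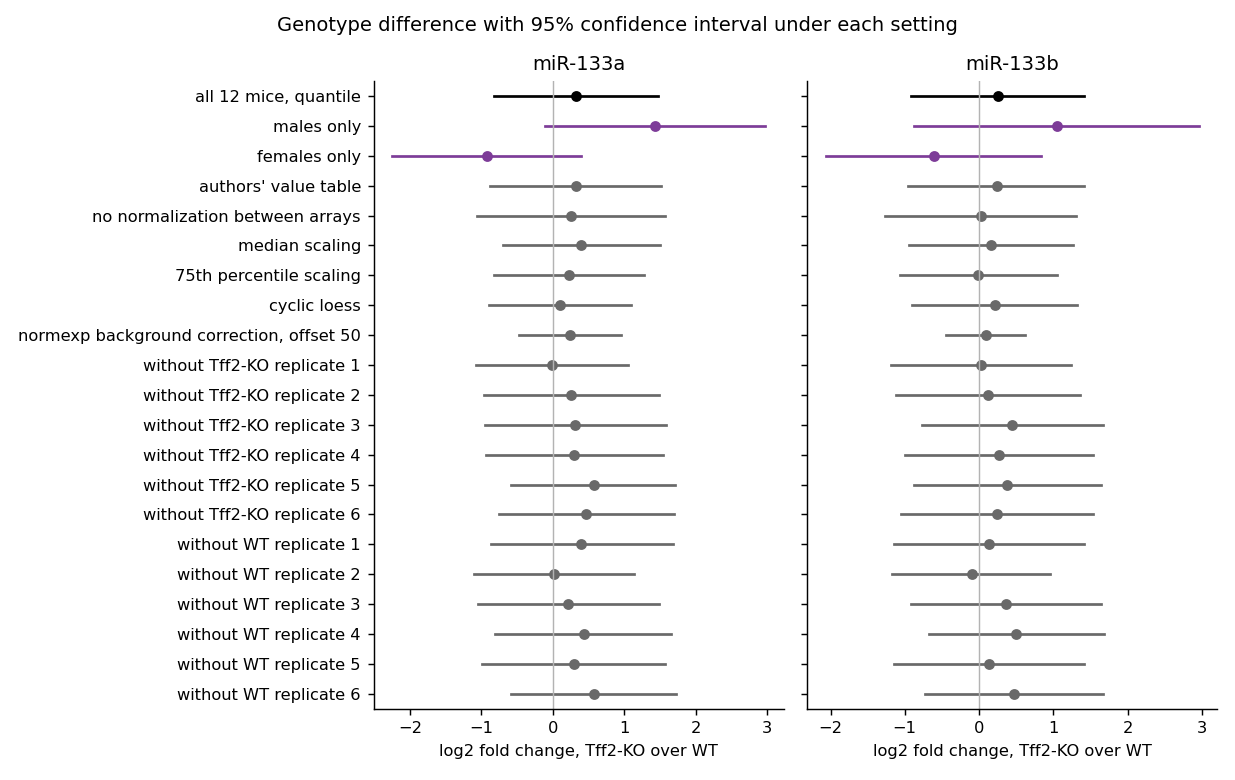
Log2 ratio of Tff2-KO to WT (points) with its 95% confidence interval (lines) for miR-133a and miR-133b, with all 12 mice, in each sex, with other scalings of the arrays and without each mouse in turn. Every interval holds 0, and males (1.43 and 1.05) and females (-0.92 and -0.61), each normalized on their own, lie on opposite sides.

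miR-1, an abundant miRNA of heart and skeletal muscle, was near background in these blood cells. Its raw intensity was 64, 8, 36, -4, 20 and 8 in Tff2-KO replicates 1 to 6 and 88, 104, 40, 56, 72 and -12 in WT replicates 1 to 6. It was above the background level on 1 Tff2-KO array and on 4 WT arrays, and the genotypes overlapped, since WT replicate 6 had the lowest value of all. The mean percentile within the array was 13.2 ± 6.88 for Tff2-KO and 29.7 ± 18.5 for WT (SD over 6 mice each, two-sided exact permutation p = 0.0801). In limma the difference did not pass (adjusted p = 0.842).

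miR-206, the skeletal muscle member that shares its seed with miR-1, was at or near background in both genotypes. Its raw intensity lay between -4 and 52 in Tff2-KO mice, with a median of 28, and between -16 and 64 in WT mice, with a median of 46. It was above background on 1 array of each genotype. The mean percentile was 15.4 ± 9.78 for Tff2-KO and 16.4 ± 9.64 for WT (SD over 6 mice each, two-sided exact permutation p = 0.866), and limma gave an adjusted p of 0.954. Although Mir206 and Mir133b are neighbours within Lincmd1, the r between their miRNAs was 0.22 over the 12 mice, where most values of miR-206 are background.

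miR-499, from the myosin gene Myh7b, had raw intensities of 60, 32, 36, 0, 36 and 32 in Tff2-KO replicates 1 to 6 and of 20, 96, 32, 56, 76 and 56 in WT replicates 1 to 6. It was above background on 0 Tff2-KO arrays and on 4 WT arrays, with overlapping groups. The mean percentile was 18.1 ± 5.93 and 26.4 ± 14.3 (SD over 6 mice each, two-sided exact permutation p = 0.240), and the adjusted p in limma was 0.701. Within females the genotypes did not overlap in raw intensity, at 0 to 36 in Tff2-KO and 56 to 76 in WT mice, as was the case for 14.4% of all miRNAs in females. After normalization the female groups overlapped, at 10 to 47.2 in Tff2-KO and 45.2 to 91.7 in WT mice. In males the genotypes overlapped in raw intensity, and the test between the sexes was not passed (adjusted p = 0.646 in limma).

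miR-1-2-as, an entry read from the strand opposite to that of miR-1, was at or under background on all 12 arrays. In Tff2-KO replicates 1 to 6 its raw intensity was -12, 8, 36, 44, 12 and -12. In WT replicates 1 to 6 it was -12, 12, -32, -12, 0 and 16. The highest values were those of Tff2-KO replicates 3 and 4, which were equal to the background level of their arrays, and the lowest Tff2-KO mice lay within the WT range. The mean percentile was 11.7 ± 10.3 for Tff2-KO and 3.27 ± 2.30 for WT (SD over 6 mice each, two-sided exact permutation p = 0.0714). Its unadjusted p in limma was 0.0321 and its adjusted p 0.507. The study had picked this entry as deregulated on the same mice, so its direction is not independent evidence. The plot of percentiles shows its place at the low end of the arrays.

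**Figure D4:**
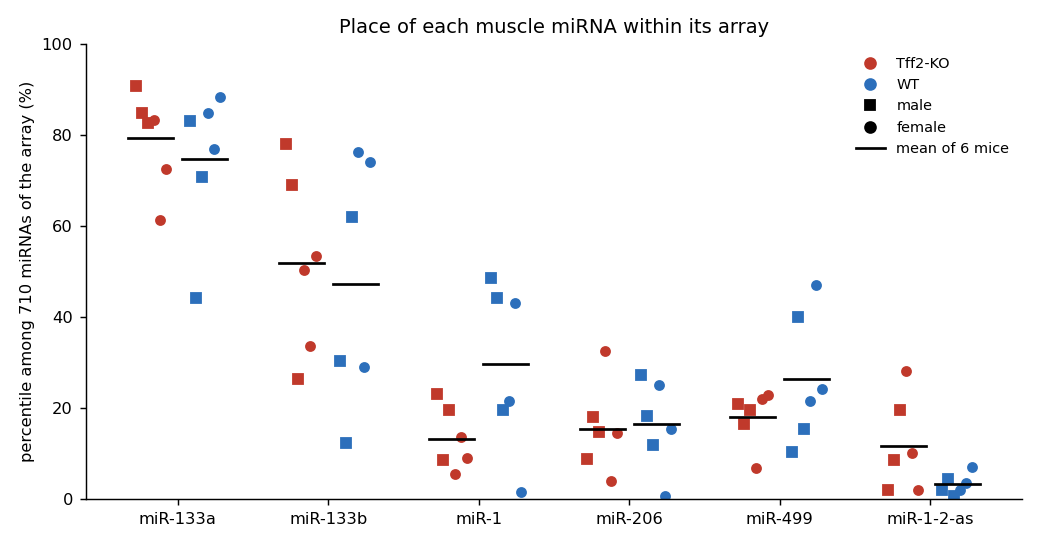
Percentile of each muscle miRNA among the 710 miRNAs of its array (linear axis, percent) in 6 Tff2-KO (red) and 6 WT mice (blue), with squares for males, circles for females and a black line at the mean. miR-133a lay between 44.1 and 90.8, and miR-1-2-as at 28.1 or lower.

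Taking the 6 muscle miRNAs as a list, 0 passed in limma at an adjusted p under 0.05, as did 0% of all 710 miRNAs. At an unadjusted p under 0.05, 1 was higher in Tff2-KO mice (miR-1-2-as, which was above background on 0 arrays) and 0 were lower. Over all 710 miRNAs, 9.44% had an unadjusted p under 0.05, 3.8% higher and 5.63% lower in Tff2-KO mice. By the exact permutation test 0 of the 6 passed after adjustment, as did 0 of all 710. Its smallest possible p was 0.00216, with which a single miRNA cannot pass adjustment over 710. This result therefore adds no support to that of limma. For all 6, Tff2-KO and WT mice overlapped in raw intensity, and 0.141% of all miRNAs had no overlap. After normalization 1.13% of all miRNAs had none, and again 0 of the 6.

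The other miRNAs known from muscle were a list of 8, all of them on the array. miR-208a and miR-208b, the cardiac relatives of miR-499, were above background on 9 and 7 of 12 arrays, with median raw intensities of 72 and 56. miR-133a*, the other strand of the miR-133a hairpin, was above it on 9 arrays, at 44 to 184 in Tff2-KO and 84 to 136 in WT mice, and its r with miR-133a was 0.11. miR-143 and miR-145, of smooth muscle, and miR-378, of muscle and fat tissue, were above background on all 12 arrays, miR-378* on 11. miR-486, which red cells also make in quantity, differed by -0.00 ± 0.17 (SE) on the log2 scale. It lay at percentile 99.7 or higher on every array, where quantile normalization gives nearly the same values to all arrays. This difference is therefore largely set by the normalization. The median raw intensities of miR-486 were 33278 in Tff2-KO and 27366 in WT mice. Of the 8, 5 had a higher and 3, among them miR-486 at -0.00, a lower mean in Tff2-KO mice. Over all 710, 358 were higher and 352 lower. The median of the log2 fold changes of the 8 was 0.28, beside 0.01 over all 710. In limma 0 of the 8 had an unadjusted p under 0.05 (adjusted p from 0.591 to 0.994).

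The miRNAs with patterns most like those of the muscle miRNAs over the 12 arrays, by Pearson r of log2 normalized intensity among 709 others, were in none of the lists used here. For miR-133b they were miR-27b (r = 0.88) and miR-1894-5p (0.84), both above background on at least 11 arrays. For miR-133a they were miR-299* (0.84), which was above background on 1 array, and miR-467d* (0.77), followed by miR-133b at rank 3. For miR-499 they were miR-455 (0.92) and miR-1191 (0.84), and for miR-1 miR-33* (0.92) and miR-465c-5p (0.90). For miR-206 they were miR-342-5p (0.88) and miR-375 (0.86), and for miR-1-2-as miR-339-5p (0.86) and miR-466e-3p (0.80). The highest of 709 correlations over 12 arrays is high by selection, and most values of the 4 dim members were at or under background.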

How the data were processed

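The authors hybridized RNA of 12 mice to a Geniom biochip with probes for miRBase 14, read a signal at each of 7 spots per miRNA, corrected it for background and kept 1 median value for each miRNA and array. The deposited raw table holds these intensities, whereas their deposited value table holds intensities after quantile normalization. Here quantile normalization was applied to the raw table with all 12 arrays, values below 1 were set to 1, and log2 values of all 710 miRNAs were compared with limma (version 3.58.1, R 4.3.3) with Benjamini-Hochberg adjustment. The number of arrays limits the precision. Exact permutation tests ran over the 924 groupings of the mice, with a smallest possible p of 0.00216, and correlations used 100000 permutations. The members and lists were chosen with earlier results of these data known. Named are the 6 members, all miRNAs of the muscle, blood and other tissue lists, and for each member the 2 miRNAs with the highest r. Alternatives were the authors' value table, other scalings, normexp with an offset of 50, a floor or pseudocount of 16, linear intensities, brighter miRNAs only, sex or a replicate block in the model, array weights, a robust trend, each sex alone, each mouse left out, a t-test and a permutation test. The fit was tested on simulated data. Nothing says that mice of 1 genotype came from separate litters, so their independence, which the p-values assume, is not known. The p-values set the difference between genotypes against the spread among these mice only. Figures were drawn with matplotlib 3.10.9.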

Additional observations from a re-analysis of the deposited data

Results flagged for a closer look

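Of 12 groups of 6 mice, the raw intensities of the 6 muscle miRNAs in each genotype, 0 held a mouse far enough from the others to pass Dixon's 95% limit, where chance gives about 1 in 20.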

How the results depend on the processing

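Over 30 alternatives, of which the one with brighter miRNAs only gave a value for miR-133a alone, 0 of 175 values of single muscle miRNAs passed an adjusted p under 0.05, and 163 kept their direction. The 12 that turned lay near 0 or rest on fewer mice, and the cause was not tested. miR-133a turned in females only (log2 fold change -0.92) and, with any 1 mouse left out, ranged from -0.01 to 0.57. miR-133b turned in females only (-0.61) and with 75th percentile scaling (-0.01), and ranged from -0.10 to 0.50 without 1 mouse. miR-206 turned with normexp (adjusted p = 0.975), on linear intensities (0.981) and in females only (adjusted p = 1), and also without Tff2-KO replicate 5 (0.816), WT replicate 1 (0.993) or WT replicate 4 (0.991), with adjusted p from 0.718 to 1 over the 12 mice left out in turn, and miR-499 turned in males only (0.969), all in limma. Of all 710 miRNAs, 4 passed with normexp, 5 among the brighter miRNAs, 2 with a robust intensity trend, 2 in males only and 3 in females only, against 0 otherwise. This 0 includes the t-test, adjusted here over all 710 miRNAs, whereas the study lists raw t-test p-values.
The count of arrays above background depends on how the background is set. With double the size of the lowest value, miR-1, miR-206 and miR-499 were above it on 0 arrays and miR-133b on 6. With the 25th percentile of the array, miR-1 was above it on 3, miR-499 on 2 and miR-1-2-as on 1. miR-133a was above these limits on 11 and 12 arrays. Without 1 mouse in turn, an alternative chosen after seeing the data, r of miR-133a with miR-133b ranged from 0.61 to 0.80. Same-numbered mice of the genotypes deviated with correlations from -0.17 to 0.11, so no pairing by number was seen, though these few correlations cannot exclude one. The numbers did follow sex, since in both genotypes replicates 1 to 3 were male and replicates 4 to 6 female. With the replicate block, the log2 fold changes were 0.32 for miR-133a (adjusted p = 0.849 in limma) and 0.25 for miR-133b (0.895), and 0 miRNAs passed.
Signal over background limits miR-1, miR-206, miR-499 and miR-1-2-as, for which a change could not be resolved.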
